A study of Mus musculus with 13 samples.

Results

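The Wnt2-high libraries are 3 RNA sequencing libraries of mouse MLL-AF10 leukemia stem cells (LSC) treated with A-485 for 8, 24 or 72 h. Each was set against the other library of its own time, here called its time partner. These 6 libraries are part of a time course of 10, in a series of 13. They were chosen by a measured value, Wnt2 above 20 CPM (counts scaled to the library total): replicate 2 at 8 h, replicate 2 at 24 h and replicate 1 at 72 h passed. Their partners are replicate 1 at 8 h, replicate 1 at 24 h and replicate 2 at 72 h. Just inside the threshold lay the 72 h library with 22.4 CPM, and the nearest library outside it was replicate 1 at 0 h with 2.97 CPM. Every gene of this comparison was therefore compared as a description, without a test: differences are means over the 3 times ± SD, n = 3 pairs.

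A-485 blocks the catalytic acetyltransferase domain of CBP and p300, coactivators that acetylate histones at enhancers. The treated LSC were sampled at 8, 24, 48 and 72 h and the 0 h LSC were untreated, with 2 libraries at each time; a vehicle control and the dose are not given in the sources used here. One library each came from LSC, from mature AML cells (mAML), both labelled as tumor, and from wild-type granulocyte-monocyte progenitors (GMP), all labelled as bone marrow. The leukemia cells carry the fusion MLL-AF10 and were grown in medium with serum and WEHI-conditioned medium. Whether the libraries of a time came from separate cultures, and whether the line is 1 clone, is not stated, so the spread between them may be technical.

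Wnt proteins are secreted ligands that bind Frizzled receptors together with the co-receptors Lrp5 or Lrp6, and canonical signalling lets beta-catenin act with TCF/LEF factors on target genes. Wnt2 is a ligand of this family best known from lung, liver endothelium and stromal cells. Foxc1 is a forkhead transcription factor of mesenchymal tissues that is also expressed in some acute myeloid leukemias, and Mecom (Evi1) is a zinc-finger transcription factor of hematopoietic stem cells that MLL fusions can keep active. Susd5 encodes a membrane protein with a sushi domain.

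These 4 genes lie on 4 different chromosomes. Their promoters are shown because the genes were high together in the same libraries. Each is the 250 bases before the annotated start, 5′ to 3′, from RefSeq on GRCm38.p6, and capitals mark the GC box GGGCGG or its complement.
Wnt2, chr6:18030446-18030695, - strand: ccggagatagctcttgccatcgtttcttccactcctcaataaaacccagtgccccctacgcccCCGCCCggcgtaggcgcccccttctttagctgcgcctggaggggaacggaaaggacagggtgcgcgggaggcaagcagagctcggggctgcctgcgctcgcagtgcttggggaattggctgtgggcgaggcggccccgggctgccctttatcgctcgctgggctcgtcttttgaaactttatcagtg
Susd5, chr9:114057104-114057353, + strand: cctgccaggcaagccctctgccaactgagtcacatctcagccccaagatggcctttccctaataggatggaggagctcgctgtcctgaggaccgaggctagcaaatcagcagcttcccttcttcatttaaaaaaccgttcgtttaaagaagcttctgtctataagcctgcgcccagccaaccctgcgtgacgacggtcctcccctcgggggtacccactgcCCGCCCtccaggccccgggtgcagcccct
Foxc1, chr13:31806396-31806645, + strand: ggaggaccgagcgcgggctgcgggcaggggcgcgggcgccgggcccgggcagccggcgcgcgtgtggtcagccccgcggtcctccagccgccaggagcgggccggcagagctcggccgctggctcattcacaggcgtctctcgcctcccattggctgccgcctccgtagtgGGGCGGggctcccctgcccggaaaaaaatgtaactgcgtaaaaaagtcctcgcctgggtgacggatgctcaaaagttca
Mecom, chr3:30509760-30510009, - strand: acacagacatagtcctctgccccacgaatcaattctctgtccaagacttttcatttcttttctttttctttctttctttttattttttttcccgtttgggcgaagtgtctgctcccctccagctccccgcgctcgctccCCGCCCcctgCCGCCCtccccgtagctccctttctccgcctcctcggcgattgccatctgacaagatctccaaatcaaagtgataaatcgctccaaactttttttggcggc

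The GC box was found in all 4 windows, 1 time each in Wnt2, Susd5 and Foxc1 and 2 times at this start of Mecom; its second listed start has none. Of 32851 promoter windows of this length in the table, 32.7% hold it on either strand. CTTTGA, the core of the TCF/LEF motif, searched on both strands, was present only at the first Mecom start among these windows and in 13.8% of all windows; it does not overlap the GC box motif in its letters. These matches are letters in a window, not binding sites. The windows held 20 CG pairs in Wnt2, 11 in Susd5, 29 in Foxc1 and 14 in the first Mecom promoter, against a median of 6.

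Wnt2 had 600, 583 and 167 counts in the Wnt2-high libraries at 8, 24 and 72 h, and 7, 5 and 9 counts in their partners. The 48 h libraries had 1 and 4 counts, and the untreated 0 h libraries had 29 and 19. GMP, LSC and mAML each had 0 counts, with totals of 24532508, 40468515 and 47257642 counts; a count of 0 allows up to 0.122, 0.0741 and 0.0635 CPM by a floor of 3 counts, which covers counting error only. Wnt2 was thus at most 2.97 CPM of the library total in 10 of 13 libraries and high in 3, which is what the rule selected. In bulk libraries, fewer cells of a type and less RNA per cell cannot be told apart. All levels from here on are CPM scaled by TMM (trimmed mean of M-values) unless said otherwise, and differences are on the log2 scale with a prior count of 2.

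Susd5 had 65.6, 76.1 and 33.4 CPM in the Wnt2-high libraries at 8, 24 and 72 h, against 0.345, 0.216 and 2.15 CPM in their partners. The difference of 5.99 ± 1.91 (log2, SD, n = 3 pairs) was the largest mean difference of all genes counted as shared. Replicate 2 at 0 h had 2.51 CPM and replicate 2 at 48 h had 1.60 CPM, so the 10 other libraries, the 3 single ones included, lay below the lowest Wnt2-high library. Foxc1 had 223, 306 and 141 CPM in the Wnt2-high libraries, against 29.7, 22.6 and 36.7 CPM in their partners (difference 2.86 ± 0.90). Unlike Wnt2 and Susd5, Foxc1 was clearly present outside the 3 libraries, at 22.4 to 42.3 CPM in the 0 h and 48 h libraries.

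Mecom had 91.0, 129 and 108 CPM in the Wnt2-high libraries, against 22.1, 27.8 and 44.6 CPM in their partners (difference 1.83 ± 0.50). The groups did not overlap, and the 0 h and 48 h libraries, at 18.9 to 39.0 CPM, lay with the partners. Eya1, a phosphatase and transcriptional cofactor, overlapped: 70.6, 87.1 and 88.8 CPM in the Wnt2-high libraries against 44.5, 55.0 and 101 CPM in their partners (0.38 ± 0.49), with the 72 h pair the other way. The genes of the targets of A-485 differed by less than their spread over times, by 0.03 ± 0.22 for Ep300 and 0.10 ± 0.17 for Crebbp.

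**Figure D1:**
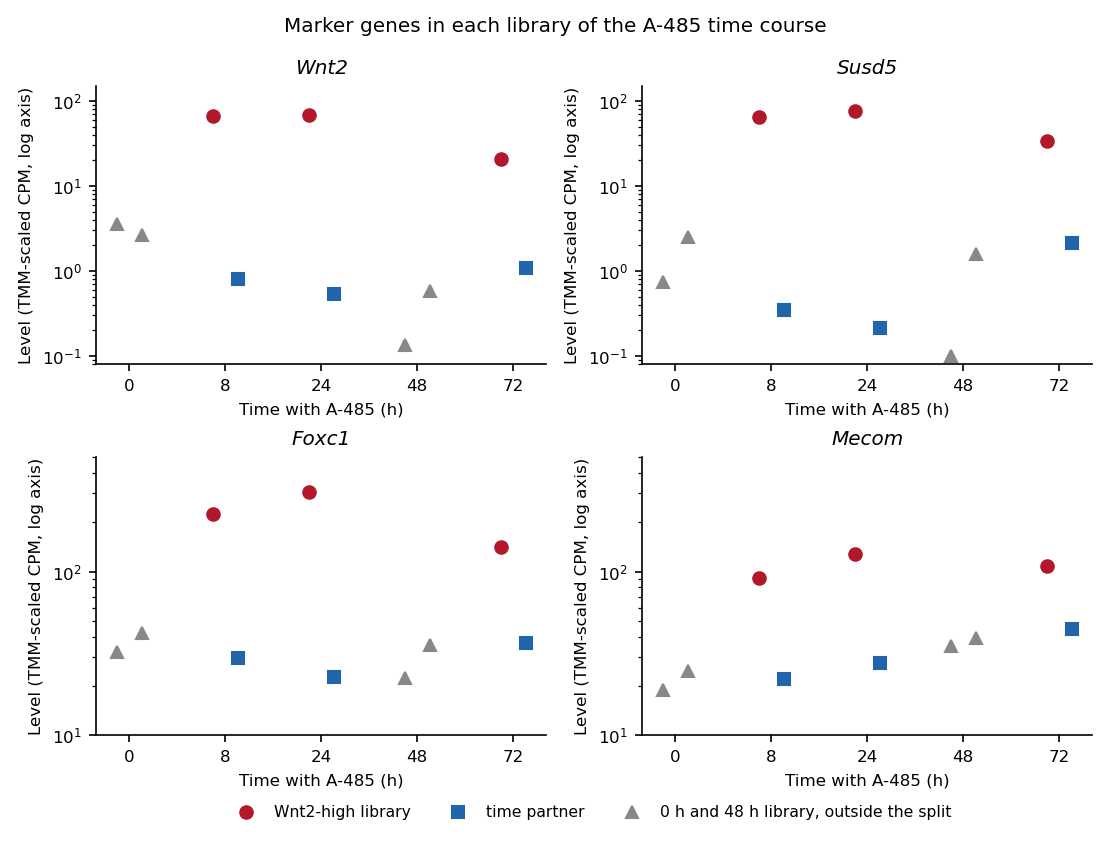
Levels of Wnt2, Susd5, Foxc1 and Mecom (TMM-scaled CPM, log axis) in each of the 10 libraries by time with A-485 (h, evenly spaced categories); circles are Wnt2-high libraries, squares their time partners and triangles the 0 h and 48 h libraries, and the 48 h library with 0 counts of Susd5 is drawn at 0.1 CPM. All 3 circles lie above every other library for each gene, the lowest Wnt2 circle at 20.9 CPM.

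A gene was counted as shared when it differed at least 2-fold in the same direction at all 3 times, with at least 5 CPM on average in the higher 3 libraries. Of 11119 genes tested, 48 were higher in the Wnt2-high libraries (0.432%) and 93 were lower (0.836%). The rule used this contrast, so nothing is read from these shares. Of the 48 higher genes, 41 passed the count filter without the Wnt2-high libraries; the other 7 entered only through the libraries in which they were high. All 93 lower genes passed without the partners. Without the 72 h pair, which had the smallest differences in 24 of the 48 higher and 63 of the 93 lower genes, the counts were 82 higher and 253 lower. The groups did not overlap across times in 44 of the 48 and 76 of the 93 (6.41% and 7.36% of all genes tested); the 2-fold limit largely fixes this, and nothing is read from it.

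Single pairs differed more in these 3 times than in the other 2. At least 2-fold differences with 5 CPM were counted in 149 genes higher (1.34%) and 358 lower (3.22%) in the Wnt2-high library at 8 h, 189 (1.7%) and 489 (4.4%) at 24 h, and 113 (1.02%) and 167 (1.5%) at 72 h. Outside the split, replicate 1 over replicate 2 at 0 h gave 86 (0.773%) and 83 (0.746%), and replicate 2 over replicate 1 at 48 h gave 66 (0.594%) and 42 (0.378%). The differences at 8 and 24 h had a Pearson correlation of 0.64 across genes, and that of each with 72 h was 0.40 and 0.41; genes are not independent replicates, and these values describe libraries chosen for a gene they share.

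Among the 14 shared genes with the largest positive differences were several nearly silent in the other time-course libraries. Where a gene passed the count filter only through the Wnt2-high libraries, low levels in the others follow from the filter, and nothing is read from them. Asz1, a germline gene next to Wnt2 in the reference gene order, had 100, 38 and 6 counts in the Wnt2-high libraries, against 0, 0 and 1 in their partners. It had 0 counts in the 0 h and 48 h libraries and in GMP, LSC and mAML. The gene on the other side of Wnt2, St7, had 515, 457 and 380 counts in the Wnt2-high libraries and 311, 288 and 338 in their partners. Neither St7 nor the genes beside Susd5, Foxc1 and Mecom were in the shared set, and those beside Mecom had at most 2 counts in each library. Gmds beside Foxc1 had 411, 265 and 181 counts in the Wnt2-high libraries and 349, 166 and 100 in their partners, and Fbxl2 beside Susd5 had 95, 137 and 93 against 83, 102 and 71.

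Abcg2, an efflux transporter of stem cells, had 12.3, 14.004 and 7.26 CPM in the Wnt2-high libraries, against 0.691, 0.648 and 0.598 CPM in their partners. Shox2, a homeobox factor, had 5.60, 7.00 and 7.01 CPM in the Wnt2-high libraries and 0.345, 0.216 and 0.837 CPM in their partners. The signalling genes Plcl1 (3.64 ± 0.92), Plcb1 (3.32 ± 0.74) and Pitpnm2 (2.85 ± 1.57), which act in phospholipid signalling, were also in this set. So were Raet1e, a ligand of the receptor NKG2D (3.09 ± 0.69), the aldehyde dehydrogenase gene Aldh1a7 (4.42 ± 1.71), and the predicted genes Gm6093, Gm14124 and Gm14139 (4.99 ± 0.93, 4.49 ± 0.85 and 3.86 ± 1.34). Not all of these were low in the single libraries, scaled among themselves. Abcg2 had 23.4 CPM in GMP, Plcb1 31.3 CPM in mAML, Pitpnm2 21.4 CPM in GMP and Raet1e 7.51 CPM in mAML. Shox2, Plcl1, Aldh1a7 and the predicted genes had at most 0.228 CPM in GMP, LSC and mAML. Gm14124 and Gm14139 lie within 5 genes of each other, so reads of related sequence may be split between them. Many of these levels are low, so their fitted differences depend on the prior count.

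Several shared genes outside that ranking had more than 5 CPM in every one of the 10 time-course libraries. The ones given here were singled out after their values were seen. Frzb, a secreted Wnt-binding antagonist, had 325, 600 and 399 CPM in the Wnt2-high libraries, against 79.5, 129 and 154 CPM in their partners. Its 0 h and 48 h libraries had 146 to 228 CPM. Its neighbour Nckap1 encodes a subunit of the WAVE actin-regulatory complex. Nckap1 had 103, 77.1 and 56.2 CPM in the Wnt2-high libraries and 33.6, 26.8 and 19.9 CPM in their partners. It was lower at 0 h, with 8.15 and 8.08 CPM, and had 27.4 and 21.6 CPM in the 48 h libraries. The protocadherin gene Pcdh7 had 248, 342 and 197 CPM in the Wnt2-high libraries, against 75.4, 72.8 and 56.6 CPM in their partners.

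Of 48 shared higher genes, 6 had another within 5 genes of the reference order: Wnt2 with Asz1, Frzb with Nckap1, and Gm14124 with Gm14139. The 47 with a place in that order lay on 16 chromosomes. Of the 90 shared lower genes with a place there, 8 had another shared lower gene within 5 genes. The share among all genes tested was not computed, so nothing is read from these counts. Itga2b (CD41), an integrin of megakaryocytes and early progenitors, had 465, 339 and 55.6 CPM in the Wnt2-high libraries, against 187, 89.7 and 22.0 CPM in their partners, so it stood higher at each time although its level at 72 h was below that of the 8 h partner. Gata2, a factor of stem and progenitor cells, was just under the 2-fold limit at 8 and 72 h, with 91.5, 157 and 109 CPM in the Wnt2-high libraries and 49.6, 74.9 and 56.8 CPM in their partners (0.96 ± 0.10).

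**Figure D2:**
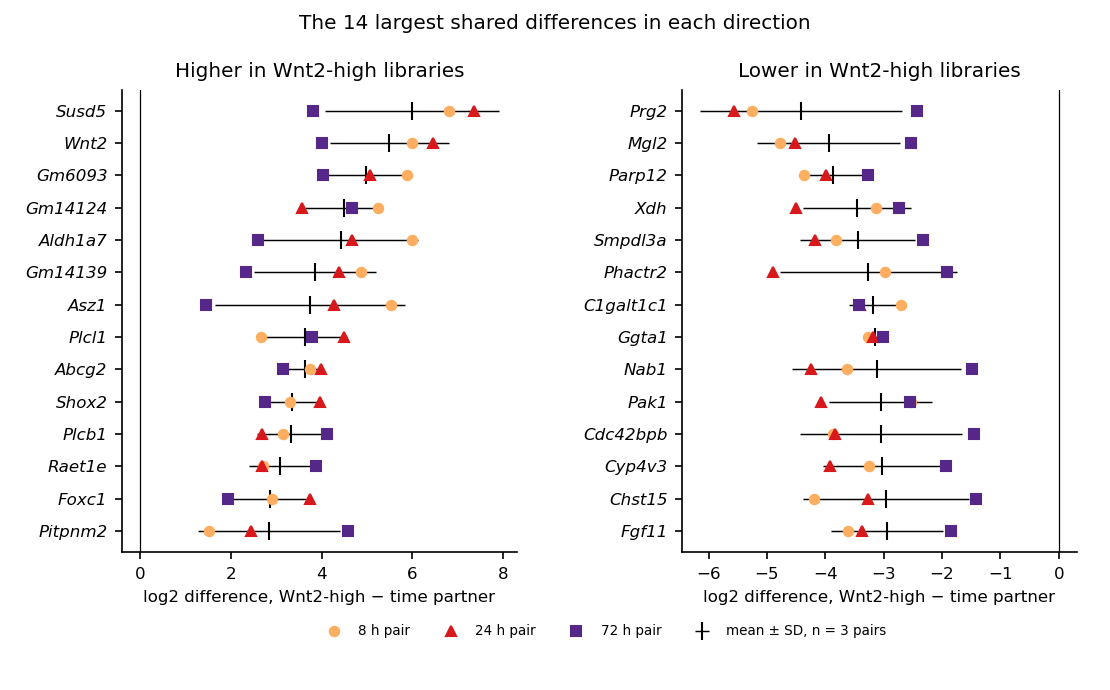
Log2 difference (Wnt2-high minus time partner) of the 14 shared genes with the largest and the 14 with the smallest mean difference; circles, triangles and squares are the 8, 24 and 72 h pairs, and the black tick and bar are the mean ± SD of 3 pairs. Every point lies beyond 1 or -1, from the rule, and the largest means are 5.99 for Susd5 and -4.42 for Prg2.

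The largest negative differences included granulocyte and macrophage genes. Prg2, the eosinophil major basic protein, had 0.560, 0.119 and 0.376 CPM in the Wnt2-high libraries, against 30.7, 17.0 and 3.11 CPM in their partners (-4.42 ± 1.73). Mgl2, a lectin of macrophages and dendritic cells, had 0.336, 0 and 0.125 CPM in the Wnt2-high libraries, against 15.7, 5.40 and 1.91 CPM in their partners. Xdh, the purine-degrading xanthine dehydrogenase, had 0.783, 0.831 and 2.004 CPM against 8.75, 24.2 and 14.8 CPM in the same order. These 3 genes also fell at 48 h against 0 h.

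Other genes of this ranking have general roles. Nab1, a corepressor of EGR factors, had 5.71, 2.97 and 18.4 CPM in the Wnt2-high libraries, against 73.1, 60.7 and 52.0 CPM in their partners and 54.6 to 70.7 CPM at 0 and 48 h. Cyp4v3, a fatty-acid hydroxylase, had 2.69, 2.61 and 14.4 CPM against 27.6, 42.9 and 56.0 CPM. Parp12, an interferon-inducible ADP-ribosyltransferase, had 0, 0 and 0.877 CPM in the Wnt2-high libraries and 4.83, 3.67 and 10.5 CPM in their partners. In each of these genes the 72 h library was the highest of the 3 Wnt2-high ones and still below every partner.

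The remaining lower genes of the ranking had mean differences from -3.44 for Smpdl3a, a phosphodiesterase, to -2.94 for Fgf11, an intracellular fibroblast growth factor homologue. Between them lay Phactr2, C1galt1c1 (a chaperone of O-glycan synthesis), Ggta1 (the enzyme of alpha-galactosyl epitopes), the kinases Pak1 and Cdc42bpb, and Chst15 (a chondroitin sulfotransferase). Ggta1 had the smallest spread, -3.16 ± 0.13. Among shared lower genes singled out after their values were seen, App, the amyloid precursor, had 25.6, 32.2 and 62.1 CPM in the Wnt2-high libraries, against 187, 209 and 210 CPM in their partners. The tetraspanin gene Cd81 had 32.2, 39.2 and 84.5 CPM in the Wnt2-high libraries and 164, 200 and 237 CPM in their partners.

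A block of chromosome 14 was low in all 3 Wnt2-high libraries. This was examined after the data were seen, with gene order from the RefSeq table of GRCm38.p6 (the files use mm9, so only order is used). Of 319 tested chromosome 14 genes with at least 5 CPM on average, a step fitted to the 8 and 24 h pairs placed a border between Txndc16 and Ero1l, with 101 genes before it and 218 beyond it. Beyond the border the median difference was -0.86 at 8 h, -0.87 at 24 h and -0.49 at 72 h, which is 0.550, 0.549 and 0.712 of the partner's level. Before the border the medians were 0.00098, 0.031 and 0.028. A step fitted to the 72 h pair alone began at Cnih1, with 212 genes beyond it.

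The shift touched nearly every gene of the stretch. Below 0 were 215 of the 218 genes at 8 h (98.6%), 209 at 24 h (95.9%) and 197 at 72 h (90.4%), against 48.2% of 9221 genes on other chromosomes at 8 h and 47.4% at 72 h. Of the 218, 191 (87.6%) were lower at all 3 times, against 22% of genes on other chromosomes and 23.4% of all genes tested. Cut into 6 consecutive parts, the stretch had medians from -0.93 to -0.68 at 8 h, from -0.99 to -0.68 at 24 h and from -0.60 to -0.41 at 72 h. The last gene on the low side was Clybl. The final 2 tested genes, Pcca and Ggact, were the only ones of the 218 higher at all 3 times, by 0.20 and 0.56 on average.

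The other 19 chromosomes with enough genes had medians between -0.038 and 0.073 at 8 h, between -0.016 and 0.054 at 24 h and between -0.065 and 0.065 at 72 h. Of 607 overlapping windows of 30 genes across the genome, 16 had a median difference with 1 sign at all 3 times and a mean over times past 0.2. Of these, 14 lay on chromosome 14. One lay on chromosome 17, from Scaf8 to Slc22a3, with medians of -0.21, -0.23 and -0.29 at 8, 24 and 72 h, and one on chromosome X, from Dkc1 to Pja1, with 0.24, 0.20 and 0.18. Outside the split the stretch was level: its median difference was -0.0026 between the 0 h libraries and -0.017 between the 48 h libraries.

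**Figure D3:**
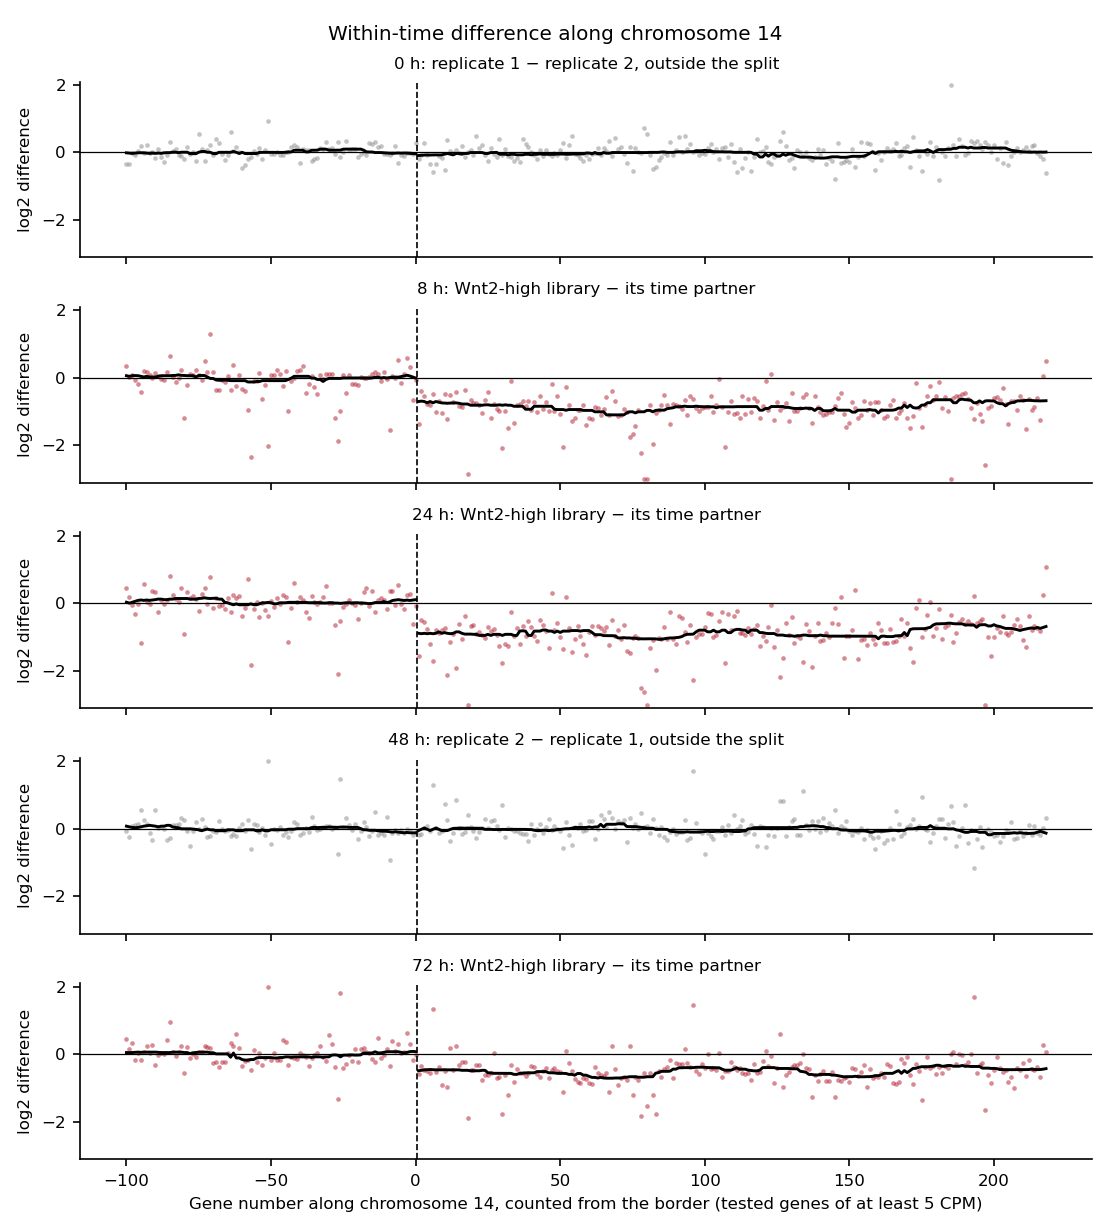
Log2 difference of 319 genes in order along chromosome 14, numbered from the fitted border (dashed line), in each pair of libraries from 0 to 72 h; each point is a gene, the black line is a running median of 25 genes, and 9 of 1595 points beyond -3 or 2 are drawn at that end. In the 8, 24 and 72 h pairs the line steps down at the border to medians of -0.86, -0.87 and -0.49, and in the 0 h and 48 h pairs it stays near 0.

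Set against the mean of the untreated 0 h libraries, only the 3 Wnt2-high libraries were low on the stretch: their medians were -0.73 at 8 h, -0.85 at 24 h and -0.61 at 72 h. The partners were at 0.088, -0.037 and -0.11, and the 48 h libraries at -0.066 and -0.11. All 10 libraries had medians between -0.0016 and 0.16 before the border. Against the single LSC library, the Wnt2-high libraries had medians of -0.79, -0.92 and -0.73 on the stretch, their partners 0.11, -0.068 and -0.12, and the other chromosomes stayed between -0.054 and 0.024 in all 10. DNA was not measured: fewer copies of the stretch, fewer cells with the usual number of copies and lower output per copy cannot be told apart.

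**Figure D4:**
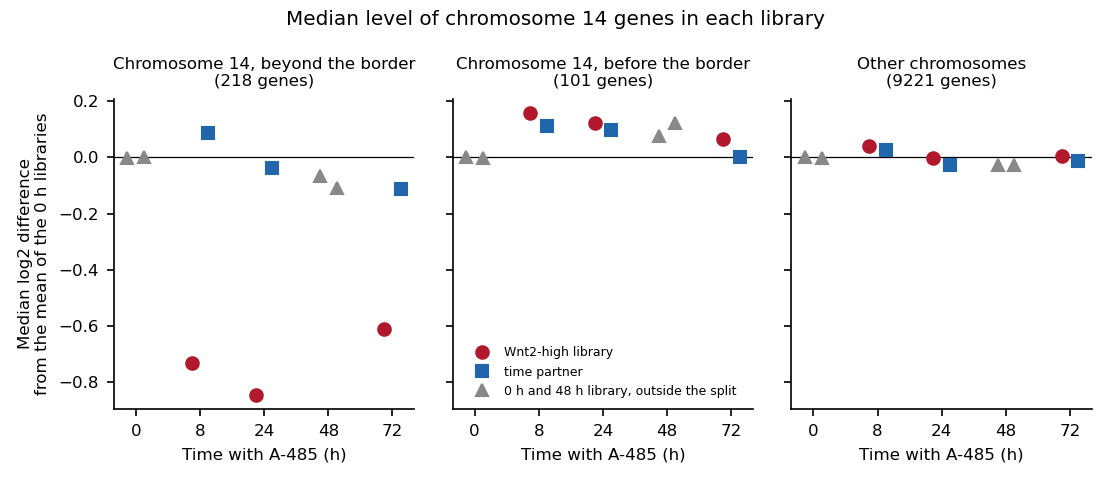
Median log2 difference of each library from the mean of the 0 h libraries, by time (h, evenly spaced categories), for chromosome 14 genes beyond and before the border and for genes of other chromosomes; circles are Wnt2-high libraries, squares their time partners and triangles the 0 h and 48 h libraries. Beyond the border the circles lie at -0.73, -0.85 and -0.61, below every other library.

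Of the 93 shared lower genes, 12 (12.9%) were placed on the stretch, against 2.19% of genes tested, and none of the 48 higher ones was. The border was fitted to the 8 and 24 h differences, which also define the shared genes, so nothing is read from these shares. Peli2, an E3 ligase of Toll-like receptor signalling, had 1.45, 1.90 and 7.76 CPM in the Wnt2-high libraries, against 12.0, 28.1 and 29.3 CPM in their partners. Ripk3, the kinase of necroptosis, had 6.71, 3.56 and 6.39 CPM in the Wnt2-high libraries, against 70.4, 34.9 and 18.9 CPM in their partners. Kctd12, an auxiliary subunit of GABA-B receptors, had 12.98, 11.99 and 23.9 CPM against 79.4, 106 and 75.2 CPM. These differences were larger than the stretch's own shift, by 2.08, 1.95 and 1.71 on the log2 scale.

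Further members on the stretch were Cebpe, a factor of late granulocyte development (5.60, 10.1 and 2.38 CPM in the Wnt2-high libraries, against 23.8, 26.4 and 5.38 CPM in their partners), and Irf9, the DNA-binding subunit of the interferon-activated complex ISGF3 (31.6, 30.9 and 29.2 CPM against 67.7, 73.2 and 63.2 CPM). Cideb, Slc25a37, Rnase4, Zfp219, Rabggta, Sdr39u1 and 9930012K11Rik complete the 12. Rb1, the retinoblastoma protein gene, also lies there and differed by -0.69 ± 0.36, close to the shift of the stretch. With the stretch's median removed from its genes at each time, 85 shared lower genes were counted, all of them among the 93. The other 81 shared lower genes, and the 48 higher ones, were not placed on it. Of the 93 lower genes 90 have a place in the reference order, and of the 48 higher ones 47, so where the rest lie is not known.

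Among Wnt pathway genes, the receptor genes Lrp5 and Fzd7 were lower in the Wnt2-high libraries. Of 19 ligand genes, 3 were tested and only Wnt2, which the rule used, was shared; 9 were at 0 in all 6 libraries and 17 under 1 CPM in all 6. Of 7 tested genes for receptors and secretion, 2 were shared and lower and 0 shared and higher, against 0.836% and 0.432% of all genes tested. The median of these 7 was 0.15, with 0.0039, -0.0084 and 0.31 at 8, 24 and 72 h. The co-receptor gene Lrp5 had 12.4, 12.5 and 37.4 CPM in the Wnt2-high libraries, against 98.3, 102 and 92.8 CPM in their partners (-2.42 ± 0.97). The receptor gene Fzd7 had 3.13, 4.27 and 11.02 CPM in the Wnt2-high libraries, against 15.8, 20.5 and 24.2 CPM in their partners (-1.85 ± 0.64). Both were as high at 0 h and 48 h as in the partners, with 113 to 143 CPM of Lrp5 and 23.1 to 31.5 CPM of Fzd7. Wls, which carries Wnt proteins to the cell surface, was higher at each time by 0.25 ± 0.13.

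None of 14 tested transducers and none of 6 tested target and feedback genes was in the shared set. Ctnnb1 (beta-catenin) had 687, 474 and 421 CPM in the Wnt2-high libraries and 543, 431 and 390 CPM in their partners. The transducers' median was 0.053, against 0.0069 over all genes tested, and -0.059 without the 8 h pair. The target genes' median was -0.26, with -0.38, -0.42 and 0.30 at 8, 24 and 72 h; without the 24 h pair it was 0.093. Rnf43, a feedback inhibitor of Wnt receptors, differed by 0.36 ± 0.32 and Cd44 by -0.51 ± 0.30.

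Genes that MLL fusions keep active lay mostly on the higher side. Of 23 tested MLL-fusion targets, 13 were higher at all 3 times and 1 was lower, against 24.1% and 23.4% of all genes tested; their median was 0.33, with 0.57, 0.48 and 0.094 at 8, 24 and 72 h. Only Mecom was in the shared set. Hoxa10, a homeobox gene of stem and progenitor cells, had 225, 331 and 281 CPM in the Wnt2-high libraries, against 98.3, 126 and 194 CPM in their partners (1.04 ± 0.45). Meis1, the cofactor of HOXA9, had 76.9, 115 and 114 CPM in the Wnt2-high libraries and 51.6, 63.8 and 81.7 CPM in their partners (0.64 ± 0.19). Hoxa9 differed by 0.33 ± 0.39, with the 72 h pair the other way (222 CPM in the Wnt2-high library, 238 CPM in its partner).

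Of 18 tested stem and progenitor genes, 7 were higher at all 3 times and 3 lower, against 24.1% and 23.4% of all genes tested, with a median of 0.18. The members with the largest differences were Mecom, Gata2, and, lower, Angpt1 (-2.02 ± 1.21), a ligand of the receptor Tie2, and Cd93 (-1.01 ± 0.77). Kit, the stem-cell factor receptor, was low in all 6, at 5.93, 0.949 and 0.376 CPM in the Wnt2-high libraries and 8.17, 2.48 and 0 CPM in their partners; untreated LSC had 202 and 199 CPM. Myc overlapped, with 11.3, 4.98 and 5.63 CPM in the Wnt2-high libraries and 27.9, 15.6 and 1.67 CPM in their partners. Of 36 MYC targets, 19 were higher at all 3 times and 2 lower, against 24.1% and 23.4% of all genes tested, with a median of 0.15.

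Neutrophil maturation genes lay on the lower side at 8 and 24 h. Of 21 tested, 0 were higher and 9 lower at all 3 times, against 24.1% and 23.4% of all genes tested, with medians of -1.90 at 8 h, -0.52 at 24 h and 0 at 72 h. Chil1, a chitinase-like granule protein, had 8.28, 2.25 and 0.751 CPM in the Wnt2-high libraries, against 31.5, 14.7 and 1.79 CPM in their partners. Primary granule genes were mixed. Of 14 tested, 4 were higher and 3 lower at all 3 times, with medians of -0.80, -1.35 and 0.12. Their summed level was higher at each time, with 3730, 3414 and 2699 CPM of library total in the Wnt2-high libraries and 3548, 2764 and 2083 CPM in their partners. Cst7, a cystatin of granules, was lower (-1.54 ± 0.65) and Srgn, the granule proteoglycan serglycin, was higher (0.69 ± 0.24). Without the 3 members on the chromosome 14 stretch (Olfm4, Ltb4r1 and Cebpe), the neutrophil median was -0.47 rather than -0.73.

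Of 17 monocyte and macrophage genes, 1 was higher and 7 lower at all 3 times, against 24.1% and 23.4% of all genes tested. Their medians were -0.47 at 8 h, -0.74 at 24 h and 0.27 at 72 h, and -0.26 over the times. Irf8, a factor of monocyte fate, had 4.36, 7.48 and 8.01 CPM in the Wnt2-high libraries and 10.7, 22.4 and 15.6 CPM in their partners, and the 1 higher gene, Ms4a6c, had 18.1, 19.3 and 6.64 CPM against 5.41, 3.78 and 2.03 CPM. Of 8 antigen-presentation and dendritic genes, 5 were lower and 0 higher, with medians of -0.65, -0.26 and -0.58; H2-DMa, a chaperone of peptide loading, differed by -1.43 ± 0.14. Of 10 tested mast cell, basophil and eosinophil markers, 5 were lower and 2 (Gata2 and Ms4a2) higher. Their median was -1.08, or -0.62 without the 8 h pair. The summed level of the whole list was lower at 8 h but higher at 24 and 72 h. It was 151, 205 and 129 CPM of library total in the Wnt2-high libraries, against 198, 155 and 80.5 CPM in their partners.

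Interferon response genes were lower in the 72 h pair. Of 29 tested, 4 were higher and 13 lower at all 3 times, against 24.1% and 23.4% of all genes tested; the medians were -0.0041, -0.057 and -0.79 at 8, 24 and 72 h, and without the 72 h pair the median over times was -0.076 rather than -0.52. Oasl2, an interferon-induced gene, had 1.79, 2.25 and 1.50 CPM in the Wnt2-high libraries, against 12.1, 7.99 and 11.5 CPM in their partners. Oas3 was 0.626 CPM in the 72 h Wnt2-high library and 7.66 CPM in its partner. Outside the split these genes also varied between libraries of 1 time: Oasl2 had 5.42 and 38.2 CPM in the 48 h libraries.

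Cell-cycle genes did not share a direction. The 32 tested G2/M genes had medians of 0.29 at 8 h, -1.19 at 24 h and -0.0071 at 72 h, so the low median of -0.36 came from the 24 h pair, and without it the median was 0.12. Of 26 hypoxia and glycolysis genes, 3 were higher and 13 lower at all 3 times, against 24.1% and 23.4% of all genes tested, with a median of -0.21; Vegfa differed by -0.66 ± 0.17. Fas, a death receptor and p53 target, had 2.46, 4.27 and 5.76 CPM in the Wnt2-high libraries, against 12.3, 17.5 and 13.2 CPM in their partners, while the 18 p53 targets had a median of -0.035, or 0.033 without the 8 h pair. The medians were -0.18 over 36 S-phase genes, -0.12 over 23 immediate-early genes, -0.12 over 17 cholesterol synthesis genes (0.027 without the 8 h pair), 0.15 over 24 ATF4 and unfolded protein response genes, 0.36 over 5 erythroid markers and 0.074 over 16 lysine acetyltransferases and readers.

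**Figure D5:**
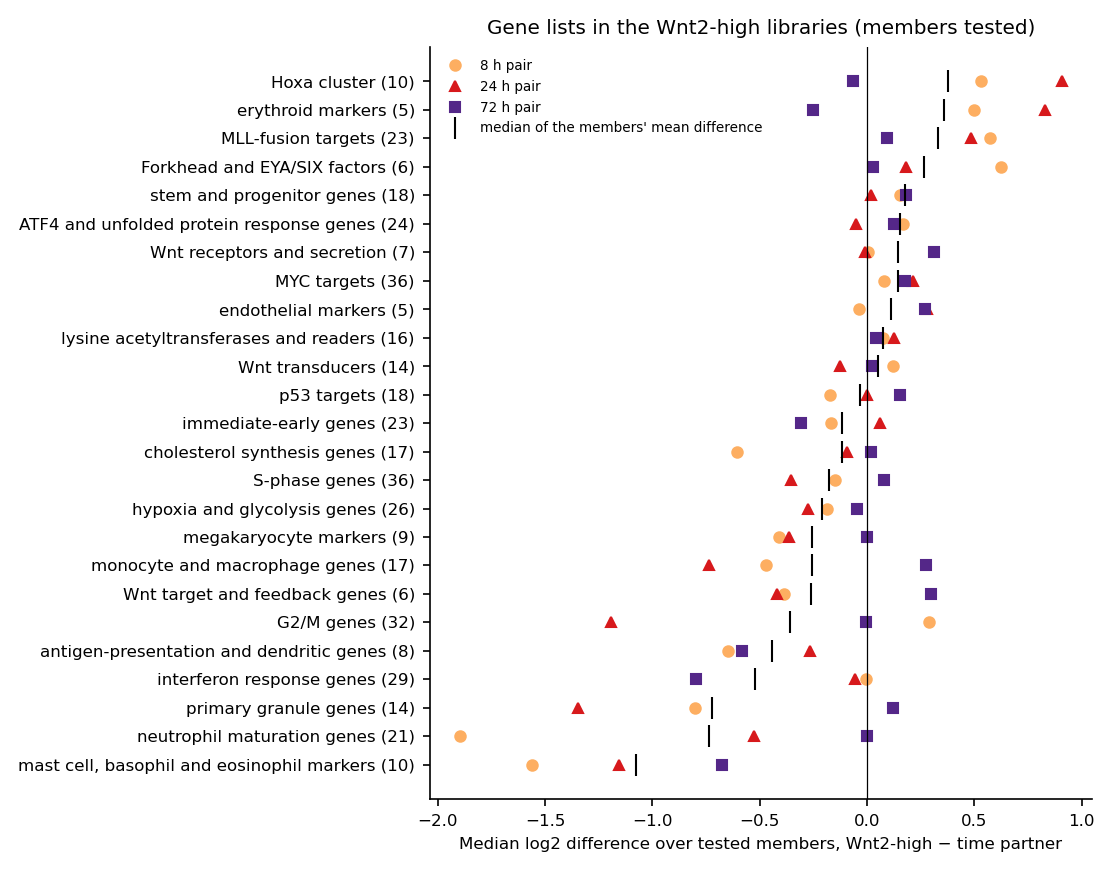
Median log2 difference (Wnt2-high minus time partner) over the tested members of each gene list with at least 5 of them, for the 8 h (circles), 24 h (triangles) and 72 h (squares) pairs; black ticks are the median of the members' mean differences. The ticks run from -1.08 for mast cell, basophil and eosinophil markers to 0.38 for the Hoxa cluster.

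Most B cell, T and NK cell, endothelial and stromal markers were at or near 0. All 16 B cell markers were under 1 CPM in all 6 libraries, summing to 1.34 to 2.56 CPM in the Wnt2-high libraries and 0.554 to 1.15 CPM in their partners. Of 22 T and NK cell markers, 20 were under 1 CPM in all 6 and 9 were at 0, among them Cd4, Cd8b1, Cd2 and Ncr1. Stromal and fibroblast markers summed to 157 to 321 CPM in the Wnt2-high libraries and 34.5 to 51.1 CPM in their partners. Foxc1 alone gave 151 to 314 CPM of library total in the Wnt2-high libraries and 23.2 to 39.3 CPM in their partners, while 21 of the 28 markers were under 1 CPM in all 6 and Fbn1, Bglap, Sp7 and Ibsp were at 0. Endothelial markers summed to 605, 788 and 518 CPM of library total in the Wnt2-high libraries at 8, 24 and 72 h. Their partners had 533, 600 and 337 CPM, so the sum was higher at each time. Of the 20 endothelial markers, 15 were under 1 CPM in all 6, and Cdh5, Emcn, Esam, Cldn5 and Sox17 were at 0. Megakaryocyte markers, Itga2b included, summed to 586, 574 and 253 CPM in the Wnt2-high libraries and 357, 307 and 155 CPM in their partners, also higher at each time. Of 17 of them, 8 were under 1 CPM in all 6, with Gp6, Treml1, Tubb1 and Pdgfb at 0. Of 9 tested, 2 were higher and 4 lower at all 3 times, against 24.1% and 23.4% of all genes tested. The median of the 9 was -0.26. Their part in the differences was not tested.

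The Wnt2-high libraries had 7464909 to 8709870 counts and 12721 to 12952 genes detected, and their partners 7814915 to 9025288 counts and 12358 to 12942. TMM factors were 1.03 to 1.07 on both sides. The nuclear RNAs Malat1 and Neat1 were lower in the Wnt2-high library at each time (Malat1 -0.36 ± 0.15, Neat1 -0.96 ± 0.37); the part of this in other results was not tested. Xist was detected in all 10 time-course libraries, with 1391 to 13025 counts, and 7 Y-linked genes summed to at most 4 counts in any of them, on both sides of the split.

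The 8 genes whose deviations from their time's mean followed Wnt2 most closely over the 10 libraries were Zadh2, Shox2, Srgn, Ap3s2, Polr2m, Ttc26, Dcun1d1 and Kdelc2, with Pearson r from 0.993 to 0.997. With 2 libraries at each time the 10 deviations form 5 mirrored pairs, so few of them are independent, and these values are a description. Only Shox2 was in the shared set. The others were abundant and differed by less: Zadh2 had 153, 201 and 150 CPM in the Wnt2-high libraries, against 100.1, 119 and 107 CPM in their partners, and Dcun1d1 150.3, 160.5 and 141 CPM against 96.9, 103 and 99.1 CPM.

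The shared genes were also compared between the libraries of 0 h and of 48 h, which the threshold left out. With the library of more Wnt2 counts set against the other (29 against 19 at 0 h, 4 against 1 at 48 h), the 48 shared higher genes had medians of -0.022 at 0 h and 0.11 at 48 h, with 21 and 27 of them positive and 24 and 18 negative. The 93 shared lower genes had medians of -0.13 and 0.19, with 38 and 60 positive and 55 and 33 negative. Over all genes tested 50.7% and 49% were positive. With so few Wnt2 counts, the orientation of these pairs is uncertain, and turned round the signs change places.

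The change at 48 h against 0 h was tested between libraries the rule did not use, n = 2 libraries each. The edgeR quasi-likelihood test was used, with a Benjamini-Hochberg adjusted p under 0.05 and the spread estimated from all 10 libraries. No vehicle control is given, so A-485 and time in culture cannot be told apart. Of the 48 shared higher genes, 0 were higher and 4 lower at 48 h; of the 93 shared lower genes, 1 was higher and 13 lower. Of all genes tested, 25.2% were higher and 30.5% lower. At an unadjusted p under 0.05, 0 and 6 of the shared higher genes and 5 and 16 of the shared lower genes passed. DESeq2 gave 0 and 6, and 6 and 12. The share of all genes passing was not counted for either. The Wnt2-high libraries enter the estimate of the spread from all 10 libraries, which is wide for the shared genes. In a fit of the 0 h and 48 h libraries alone, 4 of the shared higher genes were higher and 14 lower, and 23 of the shared lower genes were higher and 38 lower, against 31.8% and 35.3% of genes tested there.

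In the fit of 10 libraries, the 4 shared higher genes called lower at 48 h were Itih5, Serpina3g, Itga2b and Atp2b4. Itga2b had 31.0 and 34.1 CPM at 48 h and 417 and 343 CPM at 0 h (-3.54 ± 0.71 SE, edgeR adjusted p = 0.00293). Of the shared lower genes, Mgl2 had 2.03 and 4.06 CPM at 48 h and 211 and 251 CPM at 0 h (-6.25 ± 1.34 SE, edgeR adjusted p = 0.00427), and Cebpe had 12.5 and 8.27 CPM at 48 h and 212 and 176 CPM at 0 h (-4.22 ± 0.69 SE, edgeR adjusted p = 0.000994). Oasl2 was the 1 shared lower gene called higher in that fit, with 5.42 and 38.2 CPM at 48 h against 0 and 0.139 CPM at 0 h (edgeR adjusted p = 0.0096).

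In the fit of 10 libraries, the 4 marker genes were not called at 48 h. Its spread includes the within-time differences that chose the Wnt2-high libraries, so nothing is read from this. Wnt2 changed by -3.10 ± 3.28 SE (edgeR adjusted p = 0.448), Susd5 by -1.02 ± 3.43 SE (edgeR adjusted p = 0.818), Foxc1 by -0.36 ± 1.22 SE (edgeR adjusted p = 0.819) and Mecom by 0.77 ± 0.81 SE (edgeR adjusted p = 0.442). In the fit of the 0 h and 48 h libraries alone, Wnt2 fell by 3.06 (edgeR adjusted p = 0.00417) and Mecom rose by 0.81 (edgeR adjusted p = 0.00307). Susd5 (-0.99, edgeR adjusted p = 0.433) and Foxc1 (-0.33, edgeR adjusted p = 0.231) were not called. Of all genes tested in that fit, 31.8% were called higher and 35.3% lower.

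In the single libraries, which have no replicates and no test, Wnt2 was absent and Foxc1 and Frzb were far lower than in the time course. Mecom had 0.693, 22.7 and 6.58 CPM of library total in GMP, LSC and mAML, and 15.7 to 132 CPM in the time course, so the LSC library lay within that range and GMP and mAML below it. Foxc1 had 0, 1.61 and 3.47 CPM of library total in GMP, LSC and mAML, and 23.2 to 314 CPM in the time course. Frzb had 0.0408, 0.124 and 1.35 CPM in GMP, LSC and mAML, and 82.5 to 617 CPM in the time course. Foxc1 and Frzb were already present in the untreated 0 h libraries, and the 3 Wnt2-high libraries lay above all others.

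Of the 34 shared higher genes measured in the single libraries, 8 were at least 2-fold higher and 7 lower in LSC than in GMP, against 8.77% and 7.34% of 12967 genes. Of 92 shared lower genes, 20 were higher and 18 lower. Between mAML and LSC, 8 shared higher genes were higher and 4 lower in mAML, and 22 and 13 of the shared lower genes, against 10.8% and 5.74%. Both directions were present in each set.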

How the data were processed

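Reads were aligned with STAR and quantified with RSEM on mm9, per the submitters' processing notes; neither versions nor strandedness is stated there. Per gene and library, the authors deposited expected counts and TPM. Expected counts were rounded and used throughout, and the deposited TPM served only as an alternative. Of 24328 genes, 11119 passed edgeR's filter. CPM used TMM scaling and log2 values a prior count of 2. The members and gene lists were chosen with earlier results of these data known. Differences within times were described, not tested; 48 h against 0 h was tested with edgeR's quasi-likelihood test over 10 libraries, time as factor, Benjamini-Hochberg adjusted. R 4.3.3, edgeR 4.0.16, limma 3.58.1 and DESeq2 1.42.0 were used, and the scripts were tested on simulated data. Named genes were the markers, the 14 largest differences per direction, up to 4 per list with 1 sign at all 3 times, the 8 most like Wnt2 and the nearest genes; genes outside this rule, those of chromosome 14 included, were chosen after their values were seen. Paralogs and overlapping genes can share reads under RSEM. The alternatives were other scalings, prior counts, filters, TPM, a length correction, fitted coefficients, a replicate block and leaving out libraries.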

Additional observations from a re-analysis of the deposited data

How the results depend on the processing

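The shared sets of 48 higher and 93 lower genes held 55 to 82 higher and 104 to 253 lower genes when 1 pair was left out, 108 and 273 with edgeR's fitted coefficient (2-fold over the times, not at each), and 13 and 14 with a fold of at least 4. Of 120 named genes, 117 kept the sign of their difference under all 10 alternatives; Kit, Myc and Ep300, none of them shared, changed it in 9 values. Of 275 list medians under alternatives, 11 changed sign. The mast cell list had -1.82 with a prior count of 0.5, -1.57 with the fitted coefficient and -1.38 to -0.62 without 1 pair. The fitted coefficient gave -1.72 for neutrophil maturation genes and -0.80 for megakaryocyte markers. Endothelial markers had 0.33 with a prior count of 0.5 and 0.12 to 0.37 without 1 pair, but -0.039 with log2(TPM + 1) and -0.057 with the fitted coefficient. Leaving out 1 pair gave -0.52 to -0.076 for interferon response genes, 0.13 to 0.24 for MYC targets and 0.0067 to 0.24 for ATF4 genes. The cause was not tested.

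For 48 h against 0 h, the shared higher genes called higher numbered 1 with library size alone, 1 with no filter on low counts and 4 with the 0 h and 48 h libraries alone; those called lower numbered 14 with these 4 libraries and 1 to 6 without 1 library. The shared lower genes called higher numbered 2 with DESeq2 size factors, 7 with library size alone, 8 with no filter, 23 with the 4 libraries, 6 with DESeq2 and 0 to 7 without 1 library. Those called lower numbered 8 with library size alone, 38 with the 4 libraries and 6 to 17 without 1 library. Library size alone moved the median of all genes by 0.35. Apart from the fit of the 4 libraries (31.8% higher and 35.3% lower), the share of all genes called was not counted for these alternatives. Nothing is therefore read from the counts. The change of Susd5 ran from -6.73 without replicate 2 at 48 h to 0.0056 without replicate 1 at 48 h and 0.12 without replicate 2 at 0 h; its counts there are few.

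The labels do not say that the replicate numbers pair the libraries. Same-number correlations ran from -0.41 to 0.64 over 10 pairs of times, and 3 were over 0.1. That of 8 with 24 h was 0.64, and those of 72 h with 8 and 24 h were -0.40 and -0.41. These last values are the correlations of the within-time differences given above, with the sign set by replicate number. They are not a separate check. Whether the numbers at 72 h are exchanged was not tested. With the replicate number as a block, 111 higher and 245 lower genes were counted, and the medians were -0.81 for antigen-presentation genes, -2.10 for mast cell markers and 0.33 for endothelial markers. At 48 h the replicate block gave 0 and 4 calls among the shared higher genes and 1 and 11 among the shared lower ones. The share of all genes called with this block was not counted, so nothing is read from these calls. Libraries of 6467764 to 9763276 counts limit genes of a few counts.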
